A study of Ginkgo biloba with 2 samples.

Results

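miR482, miR2118, miR472 and miR1448 are plant microRNA (miRNA) families directed at transcripts of NBS-LRR proteins, the intracellular receptors that recognise pathogens. They were taken by name from the tables of known miRNAs in leaves of Ginkgo biloba, a gymnosperm tree with separate female and male plants, and are 4 of the 723 names listed there. All 4 were present in both libraries. The series holds 1 library of mature leaves from female and 1 from male trees, from trees of about 30 years with no treatment named in the labels. The number of trees behind each library is not given here. Library totals of 13193290 female and 12137619 male reads were worked out from the deposited read count and scaled level of the most abundant name. Reads of known names made up 18.7% and 20.2% of these totals. Which reads the totals count is not given here. With 1 library per sex there was no replicate check, and every difference below is between these libraries, with intervals that cover counting error only.

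Members of this superfamily pair with the part of NBS-LRR transcripts that encodes the P-loop, the nucleotide-binding motif of these proteins. In flowering plants their 22-base forms make the cleaved transcript a source of phased secondary small RNAs, which spread the silencing to related resistance genes. miR482 and miR2118 are the widespread names. miR472 is known from Arabidopsis and poplar, where it is directed at coiled-coil NBS-LRR transcripts, and miR1448 is known from poplar. In grasses miR2118 also acts on non-coding transcripts of the anther.

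The deposited tables listed 1 sequence per name and library, and these sequences are shown because they set which names resemble each other and which transcripts are predicted as targets. They are written 5′ to 3′ with T for U, as deposited, and the seed (bases 2 to 8, which leads the pairing with a target) is in capitals.
miR482, both libraries: tTTTTCCAgatcctcccattcc
miR472, female library: tTTTTCCAgatcctcccatccc
miR472, male library: tTTTCCCGactcctcccatgcc
miR1448, female library: cTTTTCCTacgcctcccatacc
miR1448, male library: tTTCCAATacctcccatac
miR2118, both libraries: gGAGTGGGagggtcggagaaga

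miR482 and miR2118 had the same sequence in both libraries, while miR472 and miR1448 were each listed with a different sequence per library. Of these 6 sequences, 5 had 22 bases, a length found for 9.25% of the 530 names of the female library and 9.59% of the 532 of the male library. The male miR1448 sequence had 19. miR482 and miR472 began with T, as did 50.2% of female and 51.7% of male names, while miR2118 began with G and miR1448 with C (female) or T (male).

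In the female library miR472 was a near copy of miR482. The sequences differed by the single substitution T20C, counted from 1 at the 5′ end of miR482, and shared the seed and a stretch of 19 bases. The male miR472 sequence stood further off, with the substitutions T5C, A8G, G9A, A10C and T20G against miR482 and another seed. The female miR1448 sequence differed from miR482 at T1C, A8T, G9A, A10C, T11G and T20A. Its seed differed from that of miR482 and the female miR472 in the last base alone, so that bases 2 to 7 were the same in these 3 names, and it matched the seed of miR7773, a name outside the families. No 2 of the 4 names shared a seed in the male library.

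Laid side by side without gaps, the 4 distinct 22-base sequences of miR482, miR472 and miR1448 were identical at 15 of 22 positions. The longest identical run was 8 bases, positions 12 to 19. The differences lay at positions 1, 5, 8, 9, 10, 11 and 20. The male miR1448 sequence fitted inside the female one when 2 bases were left off the female 5′ end and 1 off the female 3′ end, with the substitutions T8A, C10T and G11A in female positions. Over their whole length the female and male sequences were 6 edits apart.

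The sequence listed as miR2118 did not resemble the others as written but resembled their reverse complement. It was 17 edits from miR482 and 5 edits from the reverse complement of miR482, which was the nearest reverse complement among 529 female names and, level with miR472, among 531 male names. The median name lay 15 edits from the miR2118 reverse complement in both libraries. Set against each other in opposite directions, miR2118 and miR482 faced each other over all 22 bases with 16 Watson-Crick pairs, 4 G:U pairs and 2 mismatches, and with no overhang. A pairing score as high (18, pairs minus mismatches) was reached by 2 of 140185 name pairs in the female library and 3 of 141246 in the male library, these included. The median pair scored 4. The listed miR2118 sequence was thus closer to the other strand of the remaining families than to their listed strand.

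The 7-letter stretch CCTCCCA, chosen after the sequences were seen, lay in miR482, miR472 and miR1448, and its reverse complement TGGGAGG lay in miR2118. On either strand it was present in 7 of 530 names (1.32%) in the female library and 8 of 532 (1.5%) in the male library. The names outside the 4 families are shown because they hold the same stretch, with the stretch in capitals.
miR8036, both libraries: atggtctttcctacgCCTCCCA
miR3633, male library: ttgcctataCCTCCCAttcctg
miR5301, both libraries: tgTGGGAGGcgtggaaaga
miR5522, both libraries: aaataatcggaaTGGGAGGca

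miR8036 shared 16 bases with the female miR1448 sequence and was the only female name outside the families within 4 edits of a member or with 16 or more bases in common with one. The male library had no such name. miR3633 was 6 edits from the male miR1448 sequence, level with miR482 as its nearest name, and shared 11 bases with it. miR5301 was 6 edits from miR2118, and as many from the female miR1448 sequence once that was reverse complemented. Against the female miR1448 it formed 15 Watson-Crick pairs, 3 G:U pairs and 1 mismatch over its 19 bases, the highest score of any name with that sequence.

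**Figure D1:**
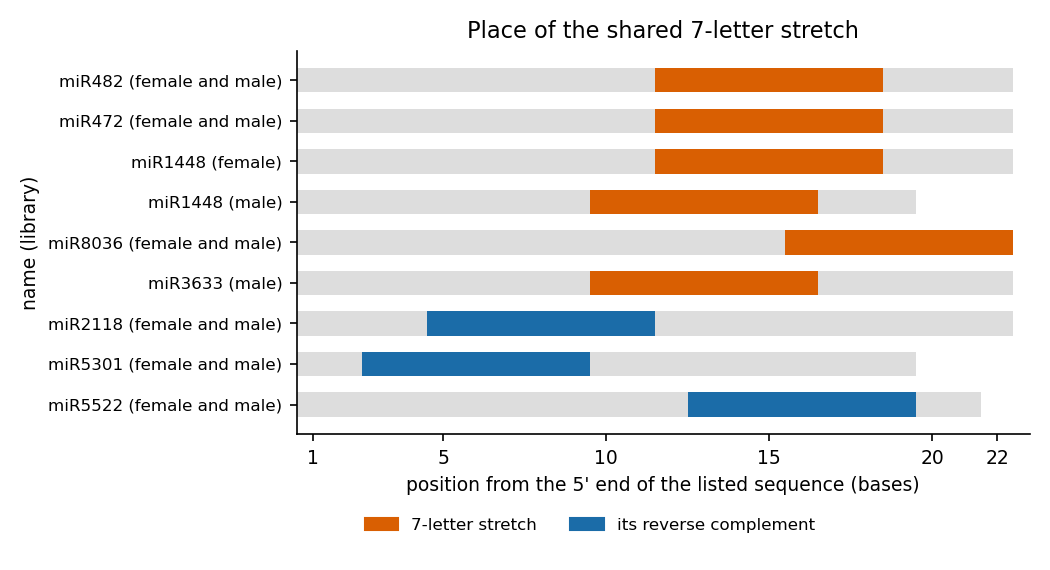
Place of the 7-letter stretch (orange) or its reverse complement (blue) in each listed sequence (grey bar, 1 base per unit from the 5′ end), by name and library. The stretch starts at base 12 in miR482, miR472 and the female miR1448, at base 10 in the shorter male miR1448, and the reverse complement starts at base 5 in miR2118.

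**Figure D2:**
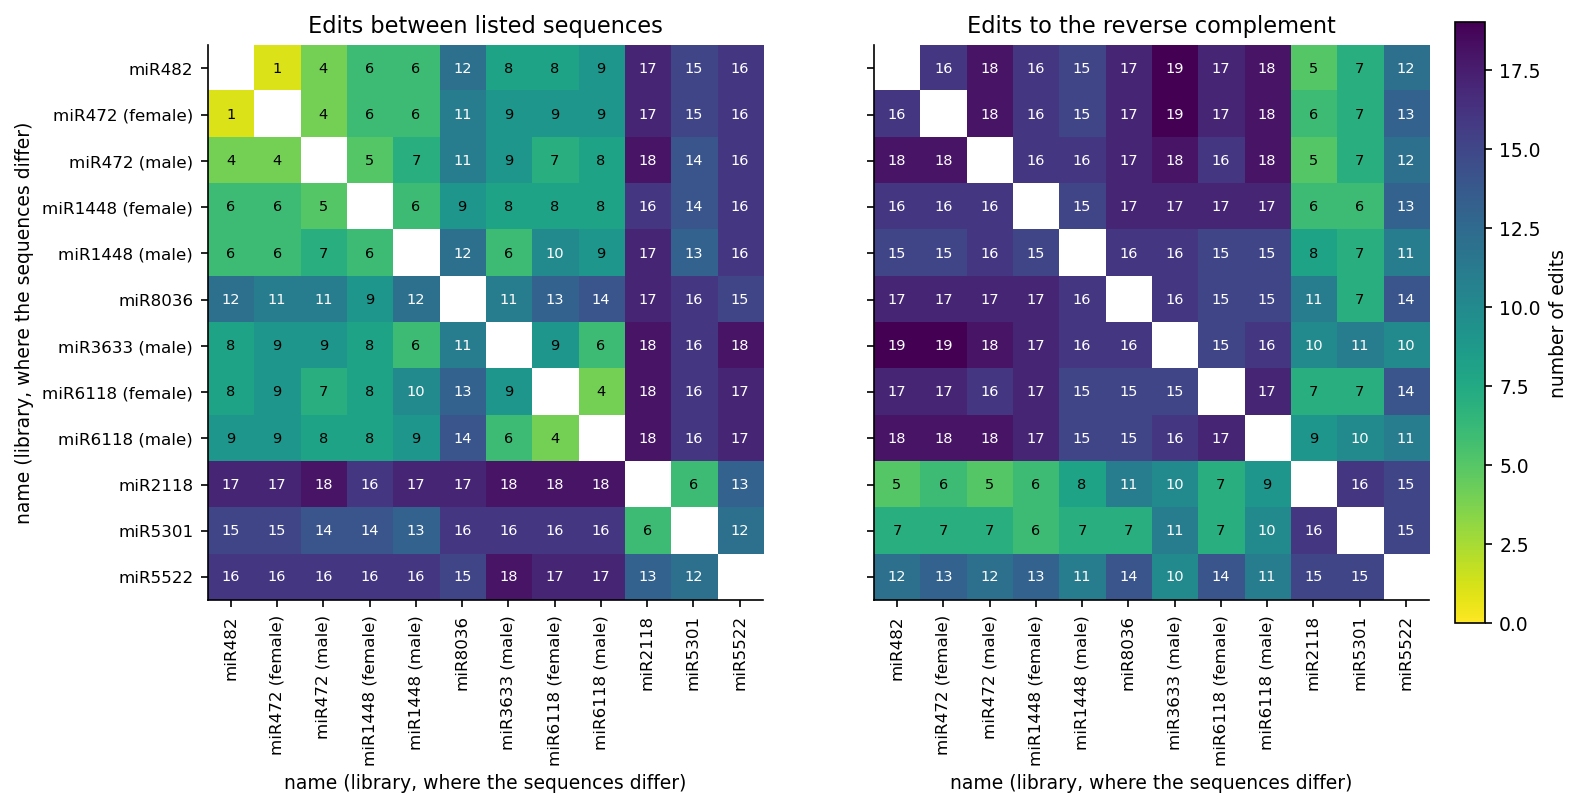
Number of edits over the whole length between listed sequences (left) and between each sequence and the reverse complement of the other (right), by name, with the library where the sequences differ. miR2118 is 16 to 18 edits from the other members on the left and 5 to 8 on the right.

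miR482 was the most abundant of the 4 families in both libraries. The female library held 7543 reads of it and the male library 9185, which is 572 and 757 RPM (reads per 1000000 reads of the library), and it ranked 33 and 29 among the names present. The male level was 1.32-fold the female one (interval 1.28 to 1.36). miR2118 had 1915 and 1723 reads, 145 and 142 RPM, and the female over male ratio of 1.02 had an interval of 0.958 to 1.09 that held 1. Reads of miR2118 equalled 25.4% of those of miR482 among female and 18.8% among male reads. Names that reached 10 RPM in both libraries (117) had a median log2 female over male ratio of -0.23. With the libraries scaled to remove that shift, miR482 stood at -0.17 and miR2118 at 0.26.

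miR1448 and miR472, by contrast, had few female reads. miR1448 had 41 female and 1879 male reads, 3.11 and 155 RPM, so that the male level was 49.8-fold the female one (36.6 to 69.6). It ranked 225 among female and 67 among male names. miR472 had 13 female and 420 male reads, 0.985 and 34.6 RPM, a male level 35.1-fold the female one (20.3 to 66.5). The 13 female reads, listed under the sequence that differs from miR482 by 1 base, equalled 0.172% of the miR482 reads, and the 420 male reads, under a sequence 4 edits away, 4.57%. For both names the libraries were thus compared across different sequences, and the part of the sequence choice in the difference was not tested.

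The order of the levels in the female library was miR482, miR2118, miR1448, miR472. In the male library it was miR482, miR1448, miR2118, miR472. There miR1448 had 155 RPM (interval 148 to 162) and miR2118 had 142 RPM (135 to 149). These separate intervals overlapped, which does not show the levels to be equal, and the ratio of these 2 names was not tested. The other neighbours in each order had intervals apart.

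**Figure D3:**
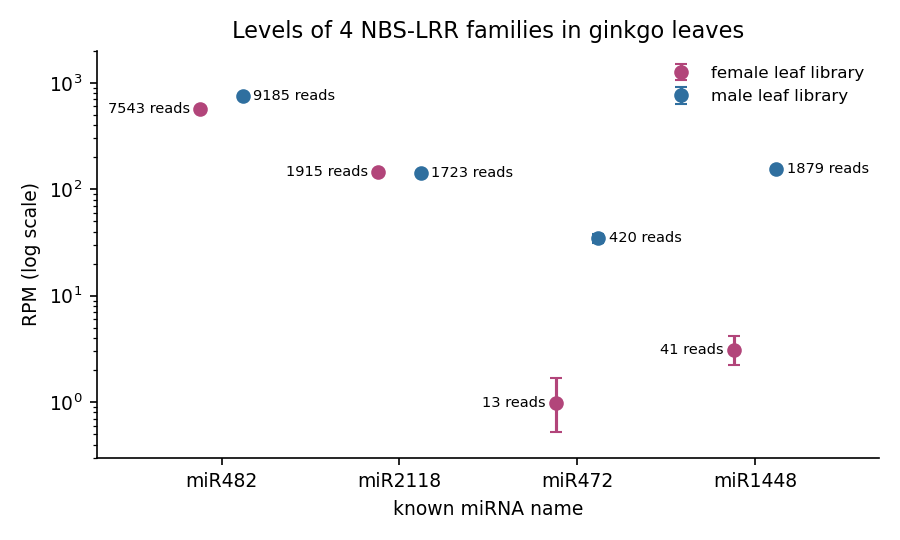
Level of each family in RPM (log axis) in the female and male leaf library, 1 point per library, with the exact 95% counting interval as bars and the number of reads beside each point. miR482 and miR2118 differ by 1.32-fold and 1.02-fold between the libraries, and miR472 and miR1448 are low in the female library at 13 and 41 reads.

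Of the 4 families, 2 exceeded 2-fold towards the male library, 0 towards the female library, and 2 lay within 2-fold. Over all 232 names that reached 10 RPM in either library, 33.2% exceeded 2-fold towards the male and 29.3% towards the female library, 62.5% in all. Beside that background, 2 of 4 families is no result about these families. Names with 1 sequence in both libraries were beyond 2-fold in 27.1% of 96 cases. For names with different sequences it was 76.7% of 73. miR482 and miR2118 belong to the first class, and miR472 and miR1448 to the second. Whether the listed sequence bears on the ratio was not tested. The members' log2 ratios of (female RPM + 1) over (male RPM + 1) ran from -5.25 to 0.03 with a median of -2.28, against a median of -0.27 over the 232 names. By this ratio miR1448 ranked 26 and miR472 ranked 35 from the male side.

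Summed over the 4 families, the libraries held 9512 female and 13207 male reads, 721 and 1088 RPM. The sum does not depend on how reads were divided among the 4 families. Division of reads with names outside them was not tested. The male sum was 1.51-fold the female one (interval 1.47 to 1.55), and the families made up 0.385% of female and 0.54% of male reads of known miRNAs. miR482 carried 79.3% of the female sum and 69.5% of the male sum. Of the male excess of 367 RPM, miR482 accounted for 50.4%, miR1448 for 41.3% and miR472 for 9.16%. The last 2 were listed with different sequences per library. For miR482 and miR2118 alone, listed with the same sequences, the male sum was 1.25-fold the female one (1.22 to 1.29).

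**Figure D4:**
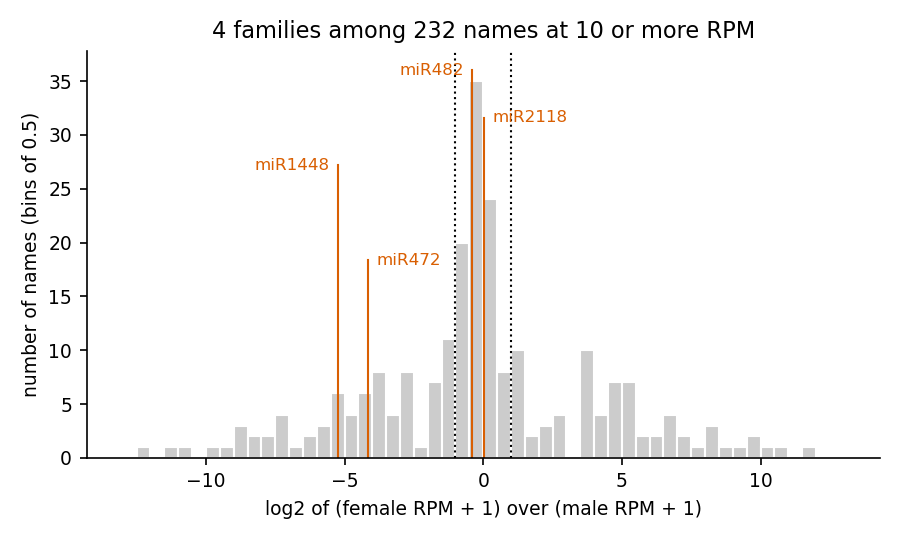
Histogram of log2 of (female RPM + 1) over (male RPM + 1) for the 232 names that reached 10 RPM in either library, in bins of 0.5, with the 4 families as orange lines and 2-fold as dotted lines. miR482 and miR2118 lie in the central peak, and miR472 and miR1448 lie in the male tail among other names.

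For each family the 2 names nearest in level, by distance over the 2 libraries on the log2 (RPM + 1) scale, were found. Nearest to miR482 were miR6206 (7842 female and 10918 male reads, distance 0.26) and miR5717 (7915 and 7580, 0.29), and nearest to miR2118 were miR5376 (1728 and 1979, 0.25) and miR7773 (2363 and 1839, 0.32). All had the same sequence in both libraries. Nearest to miR1448 were miR5054 (30 and 1885, 0.33) and miR1854 (56 and 1292, 0.64), and nearest to miR472 were miR5291 (4 and 262, 0.89) and miR5234 (3 and 268, 0.93). These were listed with different sequences per library. All neighbours were picked by level in both libraries, so their ratios resemble those of the families by construction. Their sequence class is therefore no separate result beside the shares given above.

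The names that share the 7-letter stretch on the same strand had modest levels. miR8036 had 1018 and 1220 reads, 77.2 and 101 RPM, a male level 1.30-fold the female one (1.20 to 1.42). The 41 female miR1448 reads equalled 4.03% of the miR8036 reads and the 1879 male reads 154%. miR3633, known from grapevine, had no female and 149 male reads (12.3 RPM), and the exact interval of its male over female ratio began at 43.4. On the opposite strand miR5301 had 103400 and 86029 reads, 7837 and 7088 RPM, ranks 4 and 5, with a female over male ratio of 1.11 (interval 1.10 to 1.12). It therefore exceeded all 4 families together in both libraries. miR5522 had 128 and 34 reads.

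Other families described against NBS-LRR transcripts were taken from 2 chosen lists, which may leave out further such families. Within these lists all names but miR1507 and miR6027 had few reads in ginkgo leaves. Of the 12 listed families of flowering plants, 8 were present, and 2 reached 10 RPM, 1 of them beyond 2-fold in each direction. miR1507, a legume family, had 1974 female and 258 male reads, 7.04-fold higher in the female library (interval 6.18 to 8.05). Its female sequence of 21 bases and male sequence of 22 bases were 15 edits apart, so the ratio compares unlike sequences under 1 name. miR6027, a family of the nightshades, had 235 and 484 reads, a male level 2.24-fold the female one (1.91 to 2.63), with sequences 4 edits apart. The other present names, miR1510, miR5300, miR6024, miR6025, miR6026 and miR825, had at most 38 reads in a library. Of 8 conifer families, 4 were present and none reached 10 RPM. miR946 had 46 and 58 reads, and miR950, miR1312 and miR951 had 5, 3 and 1 female reads and no male read. In these 2 lists no name reached the level of miR482, and miR1507 in the female library was the only one at the level of miR2118.

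The deposited target tables give transcripts predicted from the listed sequences, mostly assembled leaf contigs without annotation. Whether any of them encodes an NBS-LRR protein was not analysed here. miR482 had 4 predicted targets in each library, and these were the same 4 contigs. miR2118 also had 4, the same in both libraries, 3 of them with the prefix CL6208. Not 1 of the miR2118 contigs was a target of miR482, miR472 or miR1448, nor of any other known name or predicted miRNA arm. Predictions follow the listed sequence, and that of miR2118 was 17 edits from miR482 but 5 from its reverse complement. The lack of overlap therefore cannot tell whether the families have separate targets in ginkgo.

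In the female library the 2 targets of miR472, Unigene20509 and Unigene41004, were both among the 4 of miR482, which is 100% of the miR472 list and 50% of the miR482 list. No other known name was predicted for either. In the male library miR472 had 1 target, Unigene37191, which was not among its female targets nor those of any other known name. miR1448 had 1 female target and 23 male targets, and its male list ranked 22 by length among 340 names, whose median was 3. Of the 23, 18 were leaf contigs and 5 were public nucleotide records. The single female target, Unigene16518, was among them, which makes 100% of the female and 4.35% of the male list.

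Taken over the 4 families, 9 distinct targets were listed in the female library, 2 of them for 2 families (22.2%), and 32 in the male library, none for more than 1. Of all targets of known names, 7.42% of 2116 female and 9.29% of 2002 male ones were listed for more than 1 name. That share counts any known name, while the family counts cover only these 4, so the measures are unlike. Names outside the families shared the 1 female target of miR1448 and 7 of its 23 male targets. No target of miR482, miR2118 or miR472 was listed for a known name outside the families. No contig was predicted for 3 or 4 of the families.

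Some contigs were also predicted for names outside the families. Unigene16518 was listed for miR1448, miR8036 and miR5301 in both libraries. In the male library 7 of the 23 miR1448 targets were shared with other known names. Those names were miR5301, miR8036, miR3633, miR6118, miR7773 and miR5242. Of the 4 miR482 contigs, 3 were also listed for arms of predicted ginkgo miRNAs in each library, against 4.49% of all female and 3.95% of all male targets of known names. CL1668.Contig1 and CL1668.Contig2 were each listed for 5 such arms in the female library, 2 of them 5p and 3 of them 3p, and for 4 in the male library, all 5p. As these contigs share a prefix and the same counts of arms, they may not be independent entries.

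**Figure D5:**
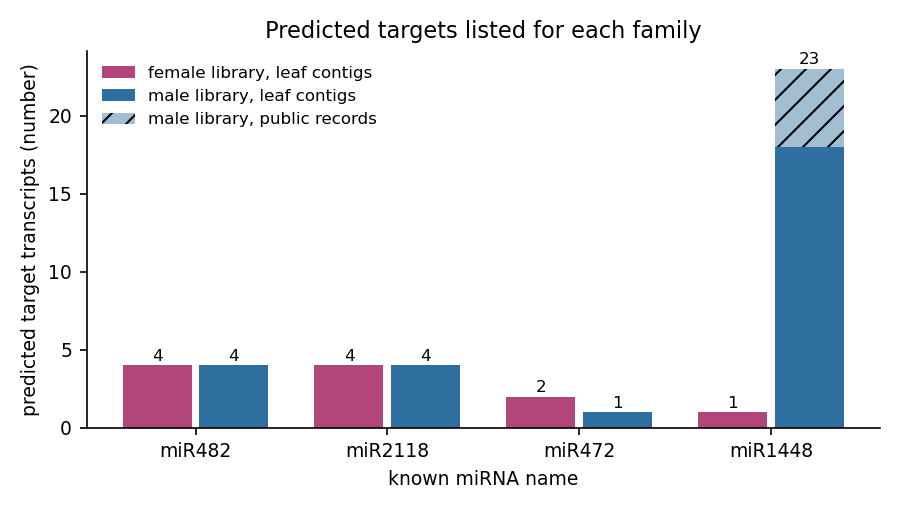
Number of predicted target transcripts listed for each family in the female and male library, with public nucleotide records hatched and leaf contigs plain. The male miR1448 list has 23 entries, and the other lists have 1 to 4.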

How the data were processed

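Small RNA reads of 1 female and 1 male leaf library were compared, grouped by the sex given in the labels. No aligner, miRNA database, target predictor or build is named in the sources used here. The deposited level table gives RPM, reads of a name per 1000000 library reads as scaled by the authors (the files call it TPM). Divided by the value of 1 read, 100% of the deposited values from 0 to 60 RPM came out whole (tolerance 0.01 read). That value was derived from the same reads and levels, so this is no separate check of the counts. No count model was fitted to 1 library per sex. The authors' second table gives the raw read count of each name beside 1 sequence. The sources used here do not say how the sequence was chosen or which reads its count includes. Deposited target tables, another kind of value, list predicted transcripts without annotation.

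Ratios carry exact 95% intervals (conditional binomial, Clopper-Pearson), which cover counting error only. Names that reached 10 RPM in either library were called when log2 of (female RPM + 1) over (male RPM + 1) reached 2-fold. Edit distances span the whole sequence (edlib 1.3.9.post1, Python 3.11.15, SciPy 1.17.1). Pairing was scored in the best ungapped antiparallel register, as Watson-Crick plus G:U pairs minus mismatches. Names outside the 4 were taken as close in sequence within 4 edits or with a shared stretch of 16 bases. Other names came from 2 lists of NBS-LRR families and the 2 nearest levels to each member. The calls and intervals were tested on simulated reads with counting error only. The simulated reads held no spread between trees and no change of listed sequence between libraries. The members and lists were chosen with earlier results of these data known. The small RNA tables hold no marker transcripts, so the leaf label was not checked. Alternatives changed the pseudocount, minimum, scaling, threshold, seed and closeness limits. The predicted miRNAs' level table was not used here.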

Additional observations from a re-analysis of the deposited data

How the results depend on the processing

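With 1 library per sex no p-value between the sexes could be computed, and the intervals leave out the spread between trees. Of 65 recomputed values, 42 stayed within the counting error or within 1.5 times the first count, and 23 moved further, with no family's ratio changing direction. Scaling by the median ratio (0.23 on the log2 scale) or by the known total moved the log2 female over male value of miR482 from -0.40 to -0.17 or -0.30, of miR2118 from 0.03 to 0.26 or 0.14, and of the sum from -0.59 to -0.36 or -0.49. The sum was -0.72 without miR2118, an alternative chosen after the data were examined. A pseudocount of 10 RPM gave -2.02 for miR472 and -3.65 for miR1448, by its construction nearer to 0. Over all names, 68 names beyond 2-fold towards the female and 77 towards the male library became 77 and 68 with scaling by the median ratio, which turned the order of these counts. They became 117 and 132 with no minimum, 32 and 34 at a minimum of 100 RPM (1 of 3 families, since miR472 drops out), and 7 and 19 among names with the same listed sequence (no family, count 0), also chosen afterwards. With seeds of bases 2 to 7, 3 pairs of families rather than 1 shared a seed in the female library. Names close in sequence numbered 1 female and 0 male. Within 2 edits or 18 bases the female count was 0, within 6 edits or 14 bases both counts were 2, and by the 7-letter stretch they were 3 and 4. No paired analysis was possible because each sex has 1 library. At 13 and 41 female reads, depth limits the miR472 and miR1448 ratios.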

Other observations

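The second deposited table is not ordered by reads. Among the families, the male miR1448 differed most in proportion from the reads of its neighbouring rows. The male miR1448, which ranked 67 by reads, stood in row 191 of 532, among 20 neighbouring rows with a median of 11 reads against its own 1879. The male miR472 stood in row 54 (rank 116 by reads), where the neighbouring rows had a median of 379 reads against its own 420, and miR2118 stood in row 25 in both libraries, among rows with a median of 1794.5 female and 1299.5 male reads. The female miR472 (13 reads, rank 293) stood in row 159, among rows with a median of 35.5 reads. The female miR1448 (41 reads, rank 225) stood in row 162, among rows with a median of 28. For miR482 the rows were 10 (female) and 11 (male), with medians around them of 17479 and 15038 reads. The order of the rows is not explained in the sources used here.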
